A study of Mus musculus with 2 samples.

Results

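C/EBP proteins are basic leucine zipper transcription factors that bind DNA as dimers, and C/EBP alpha is required for progenitors to enter the granulocyte and monocyte lineage. Tribbles proteins are pseudokinases that hold C/EBP alpha against the ubiquitin ligase COP1, so that C/EBP alpha is degraded, and forced expression of Trib1 or Trib2 in mouse marrow is known to cause acute myeloid leukaemia. The messages of 8 genes of this circuit, chosen by symbol, were followed here out of 43346 Ensembl gene rows: Cebpa, Cebpb, Cebpd, Cebpe, Cebpg and Cebpz, and the Tribbles genes Trib1 and Trib2. All 8 matched 1 row each, on 7 chromosomes.

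The cells were granulocyte-monocyte progenitors (GMP), marrow precursors of neutrophils and monocytes, from male adult C57BL/6J mice aged 5 to 6 weeks. Total RNA was sequenced from 2 libraries, each of 100 pooled cells with added spike-ins, and the labels name no treatment, mutation or second population. Both libraries carry 1 donor identifier and separate sample identifiers, and nothing says that they came from separate animals, so each SD describes how far 2 libraries lie apart and may hold technical variation alone. Replicate 1 held 40509954 expected counts and replicate 2 held 35675702. The locus Gm42418, which carries ribosomal RNA sequence, took 31.5% and 29.4% of them. All 5 GMP markers reached 1 TPM (a level scaled to transcript length and library total) in both libraries, as did 45.6% of protein-coding genes. So did 5 of 8 neutrophil, 4 of 6 monocyte and macrophage, and 4 of 5 basophil and mast cell markers. The same held for 2 of 6 erythroid and megakaryocyte markers and 1 of 6 lymphoid markers, so reaching 1 TPM is not particular to GMP markers. Of the 3 genes expected outside the sort gate Ly6a and Il7r had 0 counts in both, and Slamf1 had 1 count in each. Of 8 neutrophil markers 7 were higher in replicate 1, with a summed level of 698 and 304 TPM in replicates 1 and 2. Most of that sum was S100a8, at 448 and 233 TPM, and S100a9, at 159 and 62.2 TPM. Single genes of this list varied more, as Retnlg had 163 counts in replicate 1 and 1 in replicate 2. Cxcr2 was close to level, at 4.14 and 3.77 TPM from 316 and 275 counts. Monocyte and macrophage markers summed to 69.5 and 64.0 TPM, basophil and mast cell markers to 160 and 124 TPM, and erythroid and megakaryocyte markers to 10.5 and 10.3 TPM, in the same order. Lymphoid markers summed to 28.5 and 25.95 TPM, of which Cd79b made up 25.8 and 25.4 TPM, while Cd79a and Cd3e had 0 counts in both libraries. Some single markers differed more than these sums. The T cell kinase gene Lck had 118 counts in replicate 1 and 3 in replicate 2, and Cd4 had 1 and 17. The megakaryocyte gene Pf4, the haemoglobin gene Hba-a1 and the endothelial gene Cdh5 had 0 counts in replicate 1, and 15, 19 and 20 in replicate 2. The other 3 of 4 stromal markers were at 0 in both. The part of such cells in the differences between the libraries was not tested. With 1 group there is no condition to compare, and no gene was tested. An exact permutation test of the 2 values of 1 gene against the 2 of another could not go below p = 0.333. It would also ignore that these values are paired by library.

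The family is defined by a conserved stretch of basic residues followed by a leucine zipper, and 5 of the 6 C/EBP symbols share coding DNA within it. The 60 coding bases of Cebpa that were most alike in Cebpb, Cebpe and Cebpg are shown as an example of this likeness. They are reference sequence of GENCODE M21 on GRCm38, written along each gene's coding strand, with capitals for the 35 bases that are identical in all 4 genes shown.
Cebpa, chr7:35120271-35120330, plus strand: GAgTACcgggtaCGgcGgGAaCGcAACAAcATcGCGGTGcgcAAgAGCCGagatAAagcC
Cebpb, chr2:167689691-167689750, plus strand: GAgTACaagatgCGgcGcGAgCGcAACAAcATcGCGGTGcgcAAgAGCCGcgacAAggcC
Cebpe, chr14:54710710-54710769, minus strand: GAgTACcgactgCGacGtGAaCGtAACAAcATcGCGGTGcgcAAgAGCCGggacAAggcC
Cebpg, chr7:35050588-35050647, minus strand: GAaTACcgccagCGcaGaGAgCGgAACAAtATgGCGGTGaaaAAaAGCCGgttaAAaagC

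Cebpb and Cebpe each shared 51 of these 60 bases with Cebpa, and Cebpg shared 38. The window ran from codon 285 to codon 304 of 359 in Cebpa and from codon 64 to codon 83 of 150 in Cebpg, whose protein is short and lacks the long activation domains of the others. The best in-frame window of Cebpz shared 26 of the 60 bases. Cebpz had no part in the choice of this stretch, so the choice itself favoured a lower value for Cebpz. Over the best windows of any position, pairs of the 5 zipper genes shared 39 to 56 of 60 bases, while Cebpz shared 30 to 34 with them, which is the range of the unrelated pairs of a C/EBP and a Tribbles gene (29 to 34). Cebpz carries the C/EBP name from its CCAAT-box binding, and its yeast relative is a factor of ribosome assembly. It is therefore described apart from the 5 zipper genes.

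Near-identical genes can share reads, which bears on all values below. The longest run that any pair of the 8 transcripts had in common was 29 bases, between Cebpa and Cebpb. All 8 genes had whole expected counts in both libraries (within 0.005 of a whole number), as did 89.6% of 11469 protein-coding genes of 10 counts or more on average. Counts that are split between genes need not be whole, so no sign of splitting was seen for any of the 8. As most genes had whole counts, this does not set the 8 apart. Runs shared with genes outside the 8 were not sought.

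Cebpa (ENSMUSG00000034957.9, chr7:35119293-35121928 on GRCm38, plus strand) was the highest of the 8 genes by TPM in both libraries. It stood at 36.1 and 35.2 TPM in replicates 1 and 2, from 2624 and 2287 counts. That is percentile 90.3 and 89.9 among 21474 protein-coding genes. In bulk RNA a level does not tell how many of the cells carry the message from how much each cell holds. The ratio of replicate 1 to replicate 2 in CPM (counts scaled to the library total, with no length) was 1.01, with a 95% exact binomial interval on the counts of 0.955 to 1.07. The ratio intervals cover counting error only.

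Cebpe (ENSMUSG00000052435.6, chr14:54710360-54712174, minus strand), which drives the last steps of granulocyte maturation and is mutated in human specific granule deficiency, was the next highest zipper gene. It measured 11.1 and 22.1 TPM in replicates 1 and 2, from 350 and 627 counts. Replicate 2 was the higher library, with a CPM ratio of 0.492 (0.430 to 0.561), so that Cebpa exceeded Cebpe 3.26-fold in replicate 1 and 1.59-fold in replicate 2. Cebpd and Cebpb encode the stress- and cytokine-induced members, and C/EBP beta is the factor of emergency granulopoiesis. Cebpd (ENSMUSG00000071637.4, chr16:15887286-15891031, plus strand) stood at 7.85 and 11.9 TPM in replicates 1 and 2, a CPM ratio of 0.651 (0.547 to 0.773). Cebpb (ENSMUSG00000056501.3, chr2:167688915-167690418, plus strand) stood at 7.50 and 5.69 TPM, a CPM ratio of 1.30 (1.08 to 1.56). Cebpa exceeded Cebpd 4.60-fold in replicate 1 and 2.97-fold in replicate 2, and exceeded Cebpb 4.81-fold and 6.19-fold.

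Cebpg (ENSMUSG00000056216.8, chr7:35046422-35056573, minus strand) encodes a zipper protein without an activation domain of its own, which pairs with other C/EBP factors and with ATF4. It measured 10.7 and 10.8 TPM in replicates 1 and 2, from 1206 and 1212 counts. Cebpg lies beside Cebpa on chromosome 7, with 62.7 kb between the genes and the opposite strand transcribed. Both genes were close to level between the libraries in TPM. In CPM Cebpg stood at 29.8 in replicate 1 and 34.0 in replicate 2, a ratio of 0.876 (0.808 to 0.950), and the effective length by which the deposited TPM divides was 3826 and 4284 bases, as the transcripts were weighted differently.

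The 5 zipper genes summed to 73.25 and 85.7 TPM in replicates 1 and 2. Cebpa held 49.3% and 41.1% of that sum, and Cebpe held 15.1% and 25.8%. Cebpg held 14.6% and 12.6%, Cebpd 10.7% and 13.8%, and Cebpb 10.2% and 6.64%. Cebpa was thus the largest share in both libraries, and Cebpe the largest of the others in both. Cebpz (ENSMUSG00000024081.8, chr17:78919006-78937066, minus strand) stood at 22.8 and 23.4 TPM in replicates 1 and 2, from 2617 and 2405 counts, with a CPM ratio of 0.958 (0.906 to 1.01).

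**Figure D1:**
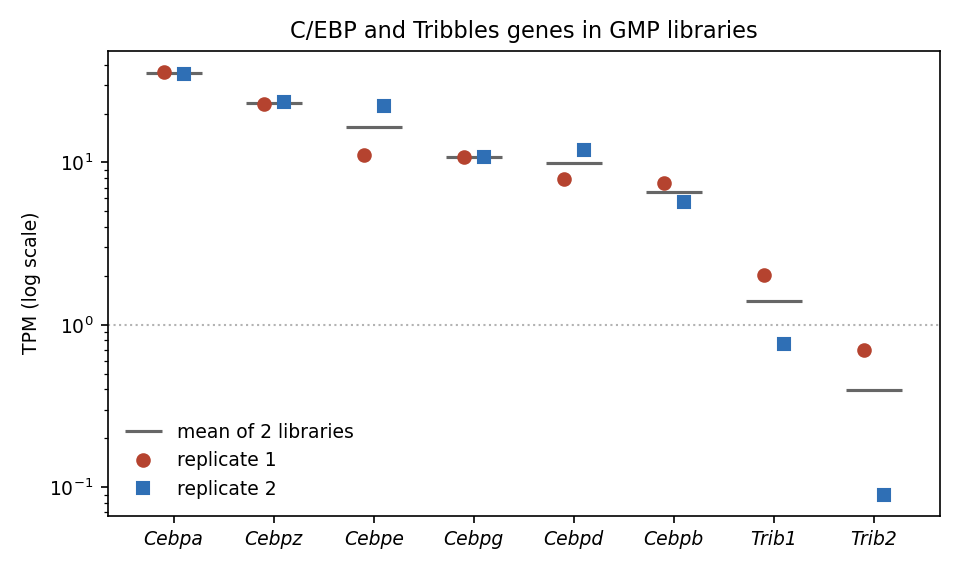
Levels of the 8 genes in TPM on a log axis, ordered by mean, with circles for replicate 1, squares for replicate 2 and bars for the mean of the 2 libraries; the dotted line marks 1 TPM. Cebpa, Cebpz and Cebpg lie almost level between the libraries, Cebpe is higher in replicate 2, and Trib1 and Trib2 are lowest and higher in replicate 1.

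Both Tribbles genes were low. Trib1 (ENSMUSG00000032501.8, chr15:59648350-59657099, plus strand) measured 2.03 and 0.760 TPM in replicates 1 and 2, from 188 and 64 counts. Trib2 (ENSMUSG00000020601.7, chr12:15791727-15816922, minus strand) was at 0.70 and 0.090 TPM, from 83 and 6 counts. Replicate 1 was the higher library for both, with a CPM ratio of 2.59 (1.94 to 3.49) for Trib1 and of 12.2 (5.37 to 34.1) for Trib2. Cebpa exceeded Trib1 17.8-fold in replicate 1 and 46.4-fold in replicate 2, and the 5 zipper genes together exceeded both Tribbles genes together 26.8-fold and 101-fold. The 6 counts of Trib2 in replicate 2 leave its ratios to other genes there poorly determined.

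Of the 8 genes 6 reached 1 TPM in both libraries, where 45.6% of all protein-coding genes did, and 4 reached 10 TPM in both, where 26.1% did. The genes short of 1 TPM in a library were Trib1, in replicate 2, and Trib2, in both. By mean TPM the order began with Cebpa (35.7 ± 0.622; SD, n = 2 throughout), Cebpz (23.1 ± 0.474), Cebpe (16.6 ± 7.83) and Cebpg (10.8 ± 0.0424). It went on with Cebpd (9.86 ± 2.84), Cebpb (6.60 ± 1.28), Trib1 (1.40 ± 0.898) and Trib2 (0.395 ± 0.431). The ranges of the 2 libraries overlapped in 2 of the 28 pairs. These were Cebpg with Cebpd, which are neighbours in the order, and Cebpe with Cebpd. Other neighbours were close, such as Cebpz and Cebpe, where the lower value of Cebpz was 22.8 TPM and the higher of Cebpe 22.1 TPM. With 2 values a gene, ranges that do not overlap do not amount to a test.

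Over protein-coding genes, differences past 2-fold between the libraries were more frequent at low counts. The 8 genes did not keep strictly to this, since Cebpe differed more in CPM than Cebpd and Cebpb, which had fewer counts. On the log2(TPM + 1) scale, which understates changes of low genes, 0 of the 7 genes of 1 TPM or more on average were past 2-fold, against 7.52% of protein-coding genes. In CPM 3 of 8 genes were past 2-fold, Trib1, Trib2 and Cebpe, against 15.9% of protein-coding genes of 10 counts or more on average. The background depends on depth. Among protein-coding genes of 20 to 200 counts on average, where both Tribbles genes lie, 46.8% were past 2-fold. Among genes of over 200 counts 4.32% were, and there 1 of 6 members, Cebpe, was. Cebpe lies at the border, since its log2 ratio of -0.94 with TMM factors or DESeq2 size factors is within 2-fold. The coefficient of variation between replicates that edgeR fitted along expression was 0.136 at the counts of Cebpa and Cebpz, 0.175 at Cebpg, 0.271 at Cebpe and 0.343 at Cebpd. It was 0.360 at Cebpb, 0.554 at Trib1 and 1.11 at Trib2, from 1 residual degree of freedom. These are values of a trend fitted over all genes that passed the count filter, read at the level of each gene, and not a spread measured for that gene.

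**Figure D2:**
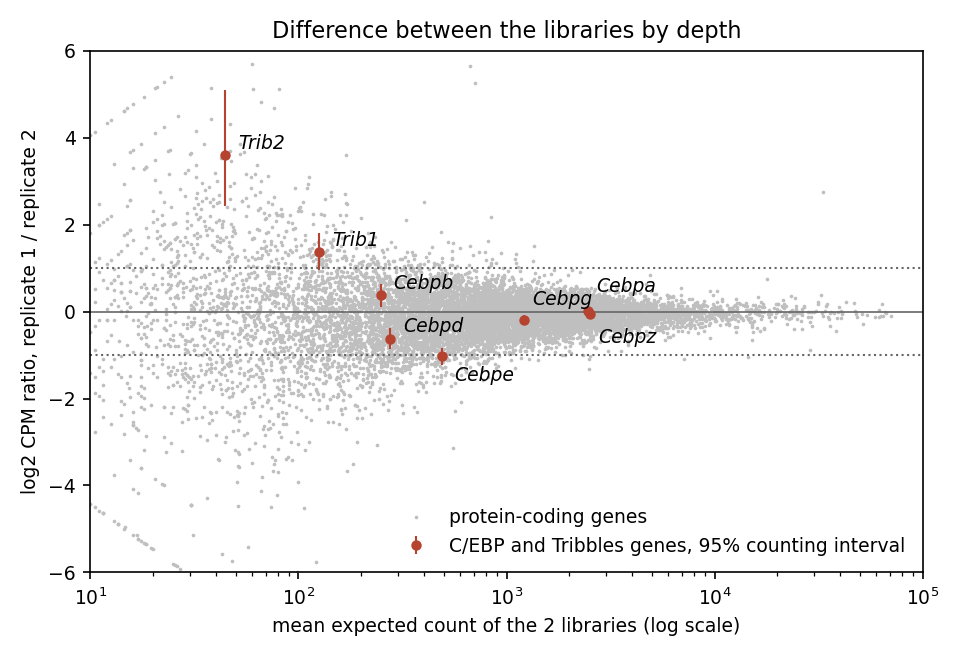
Log2 CPM ratio of replicate 1 to replicate 2 against the mean expected count (log axis), with grey dots for protein-coding genes of 10 counts or more on average and red points with 95% counting intervals for the 8 genes; dotted lines mark 2-fold. The grey cloud widens toward low counts, where Trib1 and Trib2 lie, and Cebpe sits at the lower 2-fold line; 476 genes listed at 0 in 1 library, 16 genes beyond 6 log2 units and 4 genes of higher count than the axis shows are not drawn.

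The zipper genes Cebpa, Cebpb, Cebpd and Cebpe, and also Cebpz, had 1 transcript each in the deposited tables. Cebpa, Cebpb and Cebpd have a single exon. C/EBP alpha and C/EBP beta are known to be made in long and short forms from 1 message, by starting translation at different in-frame ATG codons, and the shorter forms lack part or all of the activation domains. The coding sequence of Cebpa-201 holds such an ATG at codon 118 of 359, and that of Cebpb-201 holds them at codons 22 and 152 of 296. They are shown, with the ATG in capitals, because a read count cannot tell which was used.
Cebpa codon 118: ggcggcgcggtcATGtccgcgggggcgcac
Cebpb codon 22: gcctttagacccATGgaagtggccaacttc
Cebpb codon 152: gacgcgcccgccATGgcggccggtttcccg

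The other 3 genes had 2 transcripts each. For Cebpg the long transcript Cebpg-202 took 82.6% of the gene's TPM in replicate 1 and 94.7% in replicate 2. The short Cebpg-201 rested on 40.0 and 10.9 counts. Both have the same coding sequence of 150 codons, so they differ in their untranslated parts and not in the protein.

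For Trib1 the transcripts differ in what they encode. Trib1-201 encodes 372 codons and Trib1-202 encodes 218, of which the first 217 are shared. Tribbles proteins bind COP1 through a motif in their C-terminal tail, which lies beyond the part that the 2 transcripts share. In replicate 1 Trib1-202 took 67.4% of the gene's TPM, and in replicate 2 it took 61.5%, from 118 and 36.0 counts. Trib1-201 took 32.6% and 38.5%, from 70.4 and 27.99 counts. Of the 3081 exonic bases of Trib1-202, 1918 lie inside an intron of Trib1-201 and none of its bases lies beyond the ends of Trib1-201. Total RNA also holds unspliced message, and how many of the reads on Trib1-202 came from the intron of unspliced Trib1-201 was not tested. The transcript that encodes the whole protein thus stood at 0.660 and 0.290 TPM in replicates 1 and 2.

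For Trib2 the coding transcript Trib2-201 took all reads in replicate 1 and 52.1% of TPM in replicate 2. The rest there fell to the non-coding Trib2-202, from 0.780 counts. The gene's level there leans on this split, since Trib2-202 was listed at 0.050 TPM beside 0.090 TPM for the gene, and the effective length by which TPM divides was 4038 and 2417 bases in replicates 1 and 2. A stretch of 60 coding bases where Trib1-201 and Trib2-201 are most alike is shown to set their likeness beside that of the C/EBP genes, with capitals for the 48 identical bases.
Trib1, chr15:59654282-59654341, plus strand: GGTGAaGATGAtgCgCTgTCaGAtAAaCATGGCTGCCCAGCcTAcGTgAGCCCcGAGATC
Trib2, chr12:15793971-15794030, minus strand: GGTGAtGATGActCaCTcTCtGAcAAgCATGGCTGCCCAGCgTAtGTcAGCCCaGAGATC
These lie at codons 234 to 253 of Trib1-201, past the end of Trib1-202, and at codons 204 to 223 of Trib2-201.

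**Figure D3:**
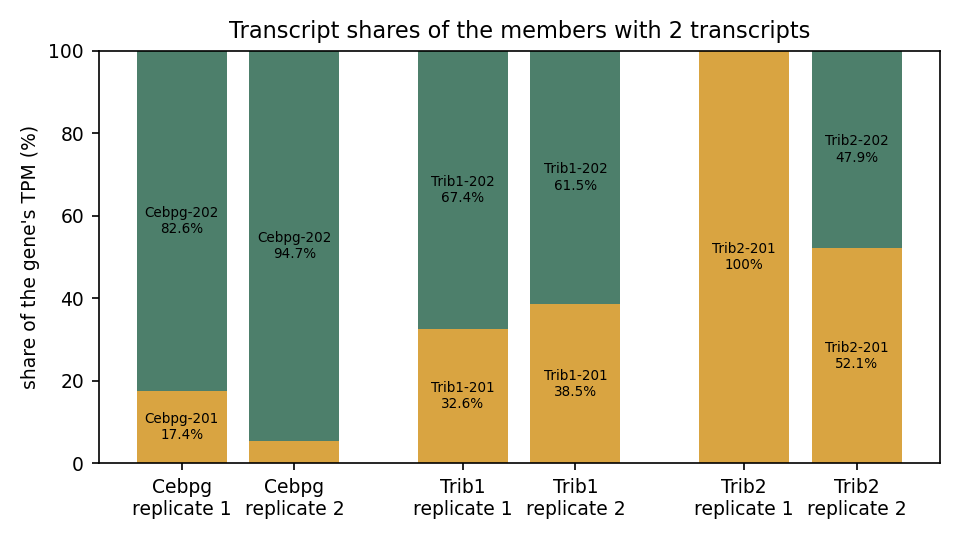
Share of each gene's TPM in percent on its 2 transcripts, for Cebpg, Trib1 and Trib2 in replicate 1 and replicate 2. Cebpg is mostly Cebpg-202, Trib1 is mostly Trib1-202, and the Trib2 bar of replicate 2 rests on 6 counts; the unlabelled segment is Cebpg-201 at 5.27%.

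Other genes overlap some of the 8. Tmem189, a membrane enzyme gene on the opposite strand, shares 312 exonic bases with Cebpb, 20.7% of its 1504, and stood at 13.7 and 11.9 TPM in replicates 1 and 2. Whether the counting used strand is not given in the sources used here, so the level of Cebpb is uncertain to that extent. Cebpzos, named for lying opposite Cebpz, shares 171 exonic bases with it, 3.67%, and was at 14.8 and 16.7 TPM. Spidr, a DNA repair gene on the opposite strand, overlaps the far end of Cebpd in annotation M21 and was at 10.9 and 10.4 TPM. The deposited tables used an M4 model of Cebpd of 1180 bases, where M21 has 3746, so reads from the rest of that transcript were not in its count. The Gm45091 antisense gene, which shares 51 exonic bases with Cebpa, and 3 small genes within Cebpg had no row in the tables. The lncRNA Gm5432, which starts beside Trib2, the microRNA gene Mir6387 within it and A530013C23Rik beside Cebpb had 0 counts in both libraries. Ndufaf7, a complex I assembly gene next to Cebpz, was at 12.9 and 10.6 TPM.

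The 8 genes also differ in base composition. The coding sequences of Cebpb, Cebpa and Cebpd held 73.4%, 71.9% and 70.4% G and C, and that of Cebpe 62.4%. Trib1-201 held 59.4%, Trib2-201 53.5%, Cebpg 50.7% and Cebpz 44.3%. The highest and the second highest gene by TPM, Cebpa and Cebpz, thus lie near opposite ends of this range.

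The ligase that Tribbles proteins recruit was expressed throughout. All 7 genes of the COP1 ligase list reached 1 TPM in both libraries, where 45.6% of protein-coding genes did, and 4 of them were higher in replicate 1. Their median was 38.5 TPM, against 13.3 TPM over the 10278 protein-coding genes of 1 TPM or more on average. Cop1, the subunit that Tribbles proteins bind, measured 38.9 and 56.5 TPM in replicates 1 and 2. Its CPM ratio was 0.860 (0.817 to 0.905), nearer to level than its TPM. In TPM Cop1 exceeded Trib1 19.2-fold in replicate 1 and 74.3-fold in replicate 2. The adaptor Ddb1 averaged 78.0 ± 6.12 TPM (SD, n = 2), the RING subunit Rbx1 56.4 ± 6.23 TPM, and the scaffolds Cul4a and Cul4b 38.5 ± 7.42 and 18.7 ± 0.382 TPM. Dda1 and Det1, which join COP1 to Ddb1, averaged 14.0 ± 3.51 and 8.69 ± 2.32 TPM.

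Relatives outside the 8 were mixed. Trib3, the stress-induced Tribbles gene, had no count in either library, and 0 counts leave room for a level of 0.0741 CPM in replicate 1 or 0.0841 CPM in replicate 2. Stk40, a Tribbles-related pseudokinase gene, measured 3.01 and 2.86 TPM in replicates 1 and 2, above Trib1 in both. Ddit3, which encodes CHOP, a zipper protein that pairs with C/EBP factors and blocks their binding, was at 9.13 and 6.69 TPM. Cebpa exceeded it 3.96-fold in replicate 1 and 5.27-fold in replicate 2.

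Most factors that act with C/EBP alpha on myeloid genes lay above it. All 6 genes on the list passed 1 TPM in each library, against 45.6% of protein-coding genes. Of the 6, 4 were higher in replicate 2, and their median was 91.6 TPM. Spi1, which encodes PU.1, had 99.9 and 118 TPM in replicates 1 and 2, and exceeded Cebpa 2.77-fold and 3.34-fold. Myb, a factor of progenitor growth, averaged 272 ± 3.05 TPM, and Irf8, which favours the monocyte fate, averaged 103 ± 0.820 TPM (SD, n = 2). Runx1, the core binding factor needed for blood stem cells to form, had 65.0 and 96.1 TPM, with a CPM ratio of 0.800 (0.775 to 0.826). The exception was Gfi1, a repressor needed for granulocyte formation, which averaged 24.7 ± 6.33 TPM.

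Of the genes around C/EBP gamma and ATF4 in amino acid stress, 5 of 6 reached 1 TPM in both libraries, against 45.6% of protein-coding genes. Atf4, the zipper partner of C/EBP gamma, measured 99.8 and 92.9 TPM in replicates 1 and 2, 9.30-fold and 8.61-fold above Cebpg. The serine synthesis genes Phgdh and Psat1 were at 95.3 ± 7.77 and 44.9 ± 0.948 TPM, and the asparagine synthetase gene Asns at 17.3 ± 2.00 TPM (SD, n = 2). Chac1, which is strongly induced in that stress, had 1 count in replicate 1 and 0 in replicate 2. Around Cebpz, all 7 ribosome assembly genes of its list reached 1 TPM in both libraries, against the same 45.6%, with a median of 27.1 TPM. Noc2l, the relative of the yeast gene whose product pairs with that of the Cebpz relative, measured 46.5 and 52.1 TPM in replicates 1 and 2. Pes1, Wdr12 and Bop1, which form 1 complex, averaged 37.3 ± 5.84, 32.1 ± 0.148 and 27.1 ± 5.85 TPM.

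Among granulocyte genes commonly placed downstream of C/EBP alpha, the 7 reported here passed 1 TPM in each library, against 45.6% of protein-coding genes. Il6ra, the interleukin 6 receptor chain, measured 18.9 and 17.5 TPM in replicates 1 and 2, and Csf3r, the receptor of granulocyte colony-stimulating factor, 53.0 and 68.0 TPM. Among the granule genes Ctsg, cathepsin G, was at 1070 and 1031 TPM, and Prtn3, proteinase 3, at 1077 and 1818 TPM. Lyz2, lysozyme, stood at 144 and 95.6 TPM. Mpo and Elane were the highest of the list, at 6332 and 2983 TPM in replicate 1 and 6602 and 3141 TPM in replicate 2. Of the 7 genes 4 were higher in replicate 2, and the list's median log2 ratio was -0.06 on the log2(TPM + 1) scale, against -0.04 over protein-coding genes of 1 TPM or more on average.

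Most late granule genes that need C/EBP epsilon in the mouse differed between the libraries in the direction opposite to Cebpe. Of 6 genes 5 were higher in replicate 1, where Cebpe was the lower. Ltf, lactoferrin, measured 3.71 and 0.0100 TPM in replicates 1 and 2, from 281 counts and 1 count. Ngp had 44.7 TPM against 0.880 TPM, from 1310 and 23 counts. The antimicrobial peptide gene Camp had 24.4 TPM against 1.99 TPM, and Lcn2, lipocalin 2, had 24.3 TPM against 11.9 TPM. Mmp9 had 27 counts in replicate 1 and 0 in replicate 2. Mmp8 was the exception, at 1.07 and 2.24 TPM in replicates 1 and 2. The median log2 ratio of the list was 1.60 on the log2(TPM + 1) scale. Ltf, Camp and Mmp8 average 20 to 200 counts, where 46.8% of protein-coding genes were past 2-fold in CPM, and Mmp9 averages fewer. Ngp and Lcn2 average over 200 counts, where 4.32% were, and Cebpe was within 2-fold with TMM factors. The CPM ratios were 247 (44.1 to 9809) for Ltf, 50.2 (33.3 to 79.4) for Ngp and 12.1 (7.89 to 19.3) for Camp. They were 2.00 (1.72 to 2.34) for Lcn2 and 0.470 (0.348 to 0.630) for Mmp8. The shares past 2-fold do not tell how frequent ratios as large as those of Ltf, Ngp and Camp are. Ltf, Camp, Ngp and Mmp8 are also on the neutrophil marker list. The summed level of that list was higher in replicate 1 as given above, mostly from S100a8 and S100a9. The part of mature cells in the difference of the late genes was not tested. With 1 library on each side these values compare 2 libraries and not conditions.

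**Figure D4:**
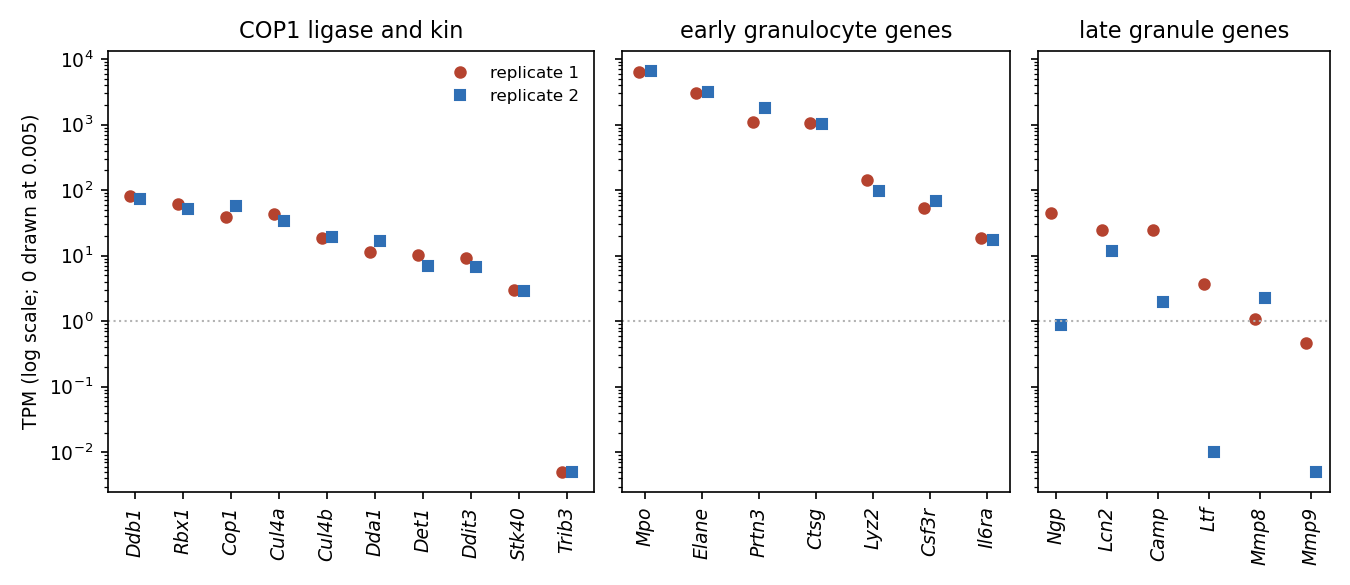
TPM on a log axis, with circles for replicate 1 and squares for replicate 2, of the COP1 ligase genes with Ddit3, Stk40 and Trib3, of early granulocyte genes and of late granule genes; values of 0 are drawn at 0.005 and the dotted line marks 1 TPM. Genes of the first and second groups differ by less than 2-fold between the libraries, while Ngp, Camp, Ltf and Mmp9 lie far apart and higher in replicate 1.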

How the data were processed

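The authors deposited, for each library, estimated counts (expected counts, which need not be whole), TPM and FPKM per gene and the percent of a gene's TPM per transcript, on mm10. The text files beside the tables name annotation M4. Which aligner and which counting program were run is not given in the sources used here. Symbols came from GENCODE M21 by Ensembl identifier without version, and 42462 of 43346 Ensembl rows matched.

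The genes and lists were chosen with earlier results of these data known. Values are means ± SD over 2 libraries. Named are the 8 genes, every gene of the COP1 ligase, relatives and late lists, and 7 genes of the early list. Also named are up to 4 others per list and genes that overlap a member or start within 5 kb. Cd79b, Lck, Cd4, Pf4, Hba-a1, Cdh5, Chac1, Gfi1, Gm42418, Retnlg, Cxcr2, Slamf1 and marker genes at 0 were picked with their values in view. So were the bins of 20 to 200 and over 200 counts. With 2 libraries no gene was ranked by likeness of pattern. edgeR 4.0.16 in R 4.3.3 gave the spread from rounded expected counts (10 counts in at least 1 library, TMM factors, intercept alone), with DESeq2 1.42.0 as an alternative. On 43346 simulated rows a coefficient of variation of 0.3 came back as 0.324. All simulated rows had the same coefficient, so this does not check the fitted trend at the level of each gene. Python 3.11.15, scipy 1.17.1 and pandas 2.3.3 did the rest. A count of 0 allows up to 3 counts, counting error only. Alternatives were other units, thresholds, pseudocounts, scalings and each library left out. A further gene of the early list was left out and enters none of its counts or its median, and a sequence is not reported here.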

Additional observations from a re-analysis of the deposited data

How the results depend on the processing

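The median level of the 8 genes, 10.3 TPM, was 14.1 TPM when TPM was rescaled without Gm42418, Gm26917, Mir6236 and Lars2, which raises all genes, and 9.29 to 11.3 TPM with either library left out. The order by level was as reported for 8 of 8 genes in FPKM and in rescaled TPM. In CPM, which is not divided by length, 4 of 8 kept their place, as Cebpz came before Cebpa and Cebpg before Cebpe. With either library left out, 6 to 8 did. Among the 7 genes of 1 TPM or more on average, which leaves out Trib2, the count past 2-fold between the libraries, 0 on the log2(TPM + 1) scale, was 1 with pseudocount 0.1, with TMM factors and with DESeq2 size factors, Trib1 each time. Under those settings Trib2 was further apart, with log2 ratios of 2.07, 3.69 and 3.69. The spread between replicates was 0.593 by edgeR over the 13930 rows with 10 counts or more in at least 1 library. It was 0.613 over 15474 rows with no filter, and 0.322 as the median that DESeq2 fitted, which is a different summary. Leaving out either library gave shares of 82.6% to 94.7% for Cebpg-202, 61.5% to 67.4% for Trib1-202 and 52.1% to 100% for Trib2-201. Of 81 list genes outside the 8, 56 reached 1 TPM in both libraries, 60 reached 0.1 TPM and 44 reached 10 TPM. Over all protein-coding genes 45.6% reached 1 TPM and 26.1% reached 10 TPM in both, and the share at 0.1 TPM was not taken. The lists were chosen by hand. No paired analysis of conditions was possible because the series holds 1 group. Depth limits the Tribbles genes most, with 6 counts of Trib2 in replicate 2.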
